A study of Homo sapiens with 9 samples.

Results

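The 39 genes described here encode DNA repair proteins and the checkpoint kinases that act with them. They were taken by name as a fixed list, 12 of homologous recombination, 10 of the Fanconi anaemia pathway, 3 of mismatch repair, 5 of end joining, 4 damage checkpoint kinases and 5 of base excision and direct reversal, and all 39 are among the 26830 genes measured. By the labels the RNA came from NB4, a human line grown from an acute promyelocytic leukaemia. The granule markers of promyelocytes were at or near 0 here. Each of the 9 libraries holds polyadenylated RNA of cells kept for 48 h with FB23-2, with FB23 or with the solvent DMSO, in 3 libraries per group. By the title of the series, both compounds serve to inhibit FTO, an RNA demethylase. The labels give no dose, so FB23-2 and FB23 were compared at the same time but not at known matched doses. Nor do they say whether replicates were separate cultures, and p-values may then measure technical spread only.

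Cells repair broken DNA along separate routes. Homologous recombination copies the intact sister chromatid and works mainly after replication, whereas end joining ligates the broken ends directly and works throughout the cell cycle. The Fanconi anaemia pathway unhooks crosslinks between the strands and hands the resulting break to homologous recombination, and inherited loss of its genes causes bone marrow failure and a high risk of acute leukaemia. Mismatch repair removes replication errors, base excision removes damaged bases, and the kinases ATM and ATR with their partners CHEK2 and CHEK1 halt the cell cycle while repair proceeds.

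Expected counts (reads per gene as estimated by RSEM) summed to between 12360291 and 38410750 per library. The labels also give the cell type as acute monocytic leukemia. Of the granule markers of promyelocytes, MPO and CTSG had 0 counts and ELANE 1 count over the 9 libraries, and the 5 granule genes together reached at most 1.77 TPM (a level corrected for gene length). The summed level of 5 monocyte markers was 41.2 to 49.1 TPM with FB23-2, 7.88 to 9.27 TPM with FB23 and 9.29 to 10.35 TPM with DMSO. Erythroid markers, mostly globins, summed to 3475 to 3913 TPM with FB23-2, 29000 to 31033 TPM with FB23 and 25635 to 27150 TPM with DMSO, and 5 epithelial or fibroblast markers to 1955 to 2090, 410.9 to 432 and 389.8 to 393 TPM. The last sum is mostly KRT8 and KRT19, whereas EPCAM averaged 25.5 TPM with FB23-2, 54.2 TPM with FB23 and 73.5 TPM with DMSO, and COL1A2 reached at most 0.02 TPM. The 4 lymphoid markers together stayed at or below 1.42 TPM. In these bulk libraries a smaller share of cells of 1 kind and less RNA per cell cannot be told apart, and the part of these marker shifts in the repair results was not tested. FB23 replicate 1 had the largest gap between length and effective length, a measure of fragment length (median over genes). It was 399 bases, against 367 to 379 in the other libraries. This library also had the highest level of its group for 24 of 38 repair genes, while FB23 replicate 3 had the lowest for 27.

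Of the 39 genes, 38 had enough counts to be tested. With FB23-2, 10 of them were higher and 22 lower than with DMSO, and 6 did not pass (edgeR quasi-likelihood test, called at an adjusted p under 0.05). The 32 calls are 84.2% of the tested members, next to 82.6% of all 13365 tested genes, of which 41.3% were called higher and 41.3% lower, so the share of repair genes called was near the background. Their median log2 fold change was -0.16, beside 0.01 over all tested genes. Changes of at least 1 on the log2 scale were seen in 9 members, or 23.7% of those tested, beside 36.8% of all genes. With FB23, 4 members were higher than with DMSO, 1 was lower and 33 did not pass, which is 13.2% called beside a background of 23.5% (12.3% higher and 11.2% lower), with a median of -0.00 beside 0.00 over all genes. With FB23, 0 of 38 members were called with a change of at least 1 on the log2 scale, beside 1.16% of all genes. The library levels of 34 members did not overlap between FB23-2 and DMSO (89.5%, background 84.2%), and those of 13 did not overlap between FB23 and DMSO (34.2%, background 37.9%).

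**Figure D1:**
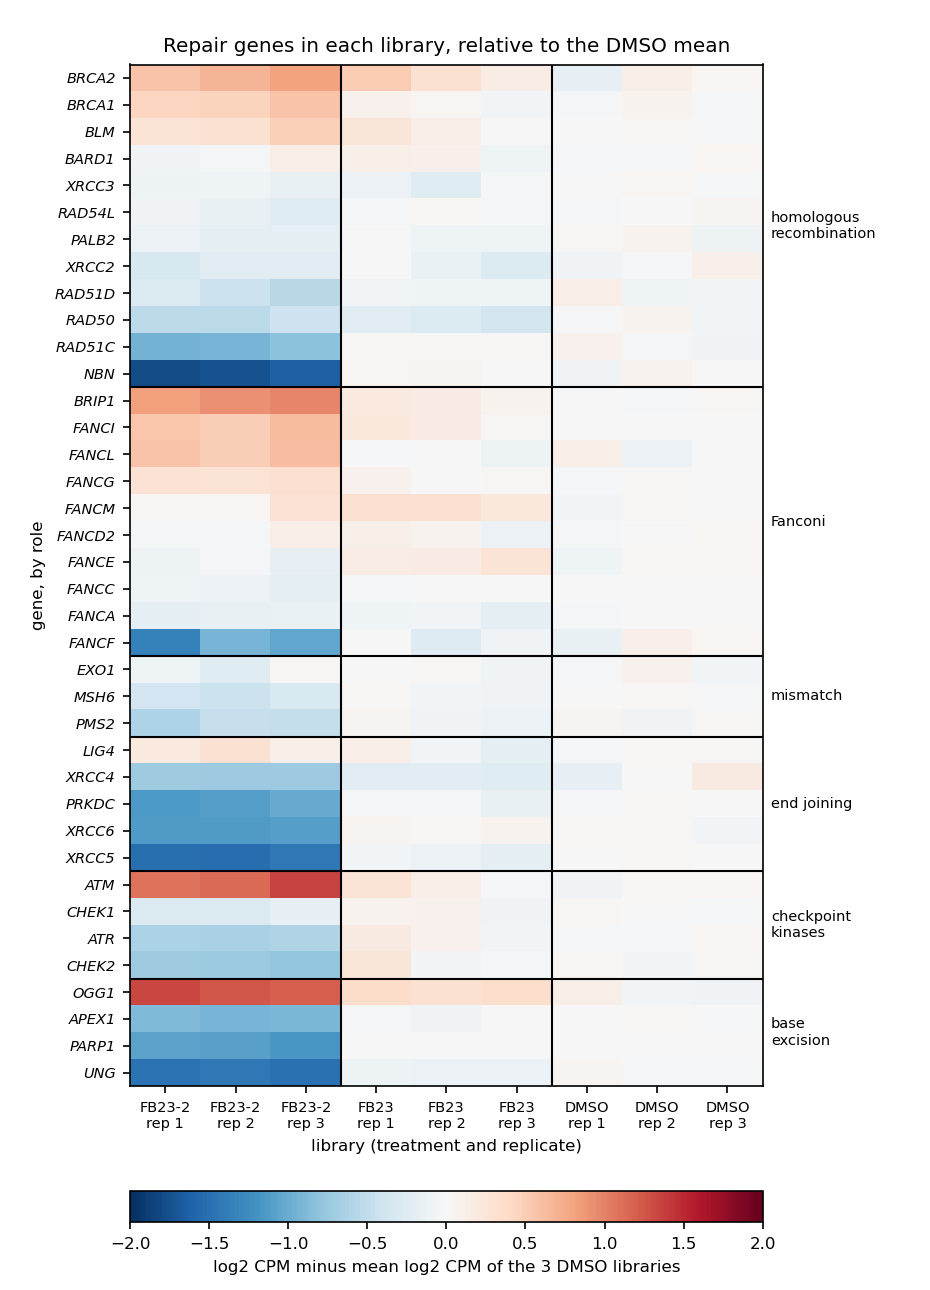
Each row is 1 of the 38 tested genes, grouped by role, and each column 1 library; the colour gives log2 CPM (counts relative to the TMM-scaled library total) minus the mean log2 CPM of the 3 DMSO libraries. The 3 FB23-2 columns resemble each other and carry the strongest colours, blue for NBN, XRCC5 and UNG and red for OGG1 and ATM, while the FB23 columns stay pale.

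The split into higher and lower genes with FB23-2 depended on how libraries were scaled. It was 10 higher and 22 lower with TMM scaling, 13 and 16 after upper-quartile scaling, 12 and 16 when libraries were scaled by their totals, and 15 and 14 on log2(TPM + 1). These scalings moved the median of all tested genes by 0.17, 0.15 and 0.24 on the log2 scale, and the median of the members to 0.01, -0.01 and 0.08. Under each of 4 other scalings (these 3 and DESeq2 size factors), all 10 higher calls and 14 of the 22 lower calls kept their direction and an adjusted p under 0.05. The 8 that did not were PALB2, RAD51D, RAD54L, XRCC2, FANCA, FANCC, MSH6 and CHEK1, all with falls of at most 0.41. All 4 scalings moved the median of all tested genes upward (DESeq2 size factors by 0.02). That favours keeping rises and losing falls, so the kept rises say little about their stability. With GC and length trends removed, 27 of the 32 calls kept their direction and an adjusted p under 0.05, but the log2 fold changes of RAD51C, XRCC4, CHEK2 and APEX1 shrank by over 1.5 times, to falls of 0.24, 0.23, 0.37 and 0.58, and FANCL stood at 1.13, BLM at 0.54, LIG4 at 0.35 and FANCA at -0.45. The length given for each gene was the same in all 9 libraries for all 26830 genes. Isoforms were thus not resolved, and a change of isoform could be neither seen nor corrected for in these values.

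**Figure D2:**
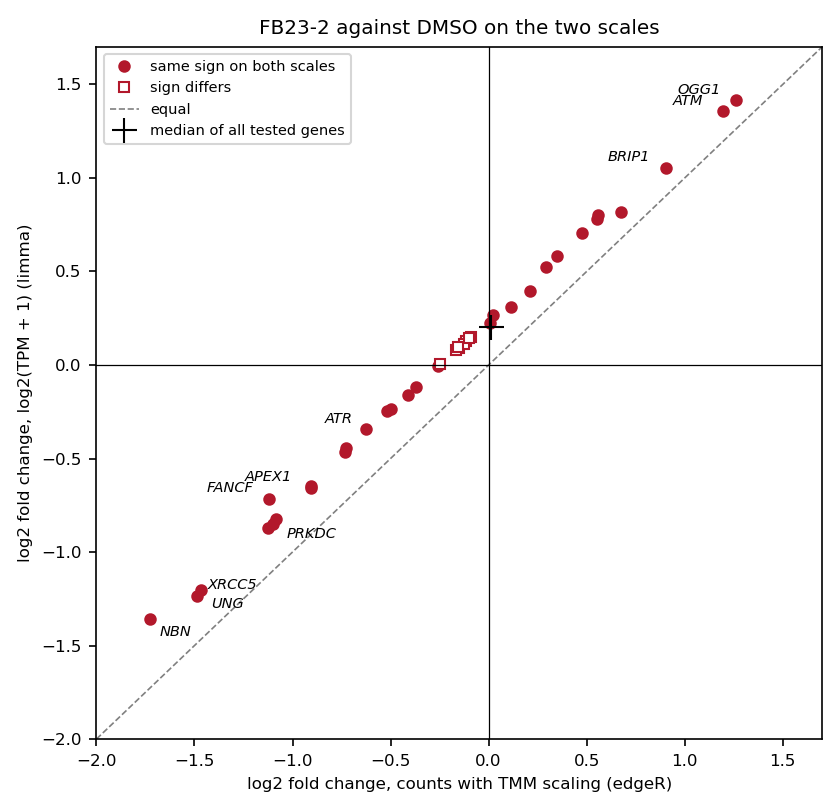
Each point is 1 of the 38 tested genes, with its log2 fold change of FB23-2 against DMSO from counts with TMM scaling on the horizontal axis and from log2(TPM + 1) on the vertical axis; the cross marks the median of all tested genes and the dashed line equality. The points run parallel to the line and above it, and open squares mark the genes near 0 whose sign differs between the scales.

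All 5 end joining genes and all 4 checkpoint kinases were called with FB23-2, as were all 4 tested base excision genes, beside 82.6% of all genes, so that full counts in lists this short are near the background. The end joining and checkpoint genes fell in all but 2 cases, LIG4 and ATM. For 4 of these genes and for the base excision genes with the largest fall (UNG) and rise (OGG1), the 150 bases before the listed transcription start are shown, since members that moved together or apart can be read beside their promoters. UNG and OGG1 were added after their values were seen. Sequences are from RefSeq on GRCh38.p14, whose table matched 35 of the 39 genes, and where it lists more than 1 start (ATM and UNG) the first is shown. The gene positions given elsewhere here are from GENCODE, whose starts differ. By them XRCC6 starts at 41621119, ATM at 108222484 and CHEK2, on the minus strand, at 28742422. The windows shown for these genes therefore lie inside the GENCODE gene, and those of XRCC4, UNG and OGG1 reach into it. Capitals mark matches on either strand to a CCAAT box (letters CCAAT), a GC box (letters GGGCGG), a CHR element (letters TTTGAA) or an E2F site (letters TTTCCCGC or TTTGGCGC). XRCC6 is shown from chr22:41621145-41621294, plus strand, XRCC4 from chr5:83077397-83077546, plus strand, CHEK2 from chr22:28741821-28741970, minus strand, UNG from chr12:109097447-109097596, plus strand, ATM from chr11:108222917-108223066, plus strand and OGG1 from chr3:9749802-9749951, plus strand.
XRCC6: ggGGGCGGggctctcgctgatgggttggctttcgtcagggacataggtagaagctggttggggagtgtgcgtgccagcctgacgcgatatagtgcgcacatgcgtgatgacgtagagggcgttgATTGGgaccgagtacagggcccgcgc
XRCC4: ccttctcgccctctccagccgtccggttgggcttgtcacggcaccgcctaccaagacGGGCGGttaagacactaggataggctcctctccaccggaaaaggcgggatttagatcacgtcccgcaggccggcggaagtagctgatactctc
CHEK2: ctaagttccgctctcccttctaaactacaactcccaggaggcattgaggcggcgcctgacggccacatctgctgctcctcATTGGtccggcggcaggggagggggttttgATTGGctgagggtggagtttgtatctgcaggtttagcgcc
UNG: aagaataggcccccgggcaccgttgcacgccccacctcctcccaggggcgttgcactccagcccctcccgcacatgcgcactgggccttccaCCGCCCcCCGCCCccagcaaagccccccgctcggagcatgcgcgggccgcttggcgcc
ATM: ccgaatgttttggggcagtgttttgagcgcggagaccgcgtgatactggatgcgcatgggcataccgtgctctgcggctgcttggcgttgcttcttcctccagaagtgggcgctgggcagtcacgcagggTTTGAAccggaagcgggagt
OGG1: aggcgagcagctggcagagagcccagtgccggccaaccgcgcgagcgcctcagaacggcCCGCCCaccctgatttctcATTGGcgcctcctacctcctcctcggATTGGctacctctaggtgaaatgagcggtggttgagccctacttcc
Over windows of 300 bases that reach 50 bases past the start, the CCAAT box was found in 18 of 35 member promoters (51.4%, beside 35.7% of all 27305 windows), the GC box in 27 (77.1%, beside 44.6%), the CHR element in 3 (8.57%, beside 15.4%) and an E2F word in 5 (14.3%, beside 2.31%). None of these words contains another. Of the end joining, checkpoint and base excision genes, XRCC6, CHEK2, XRCC4, UNG, APEX1 and CHEK1, which fell, held the CCAAT box within those 300 bases. So did ATM and OGG1, which rose. ATR and PARP1, which fell, and LIG4, which rose, did not. Of the called recombination genes, BLM, PALB2 and RAD54L held it, and BRCA1, BRCA2, RAD51C, RAD51D, RAD50 and XRCC2 did not. Of the members not called, XRCC3 and FANCM held it, and BARD1, FANCD2, FANCE and EXO1 did not. A match is a run of letters and not a measured binding site.

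End joining starts with Ku, a ring of the XRCC5 and XRCC6 proteins that slides onto a broken end and recruits the DNA-dependent protein kinase encoded by PRKDC; LIG4, held by XRCC4, then seals the break. With FB23-2 both Ku genes and PRKDC fell, to folds of 0.356 (XRCC5), 0.459 (XRCC6) and 0.472 (PRKDC) of DMSO. XRCC5 (chromosome 2, 216107464 to 216206303, GRCh38) had 276, 273 and 292 CPM in FB23-2 libraries, 753, 725 and 688 CPM in FB23 libraries and 779.8, 798 and 778 CPM in DMSO libraries. The FB23-2 values lie far below both other groups, which lie closer together. XRCC5 fell by 1.49 ± 0.05 (SE) on the log2 scale with FB23-2 (edgeR, adjusted p = 4.12e-15), and stood at -0.12 ± 0.04 with FB23 (adjusted p = 0.0579).

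XRCC6 (chromosome 22, 41621119 to 41664048) had 198, 197 and 202 CPM with FB23-2, 451, 439 and 457 CPM with FB23 and 443, 441 and 417 CPM with DMSO. It fell by 1.12 ± 0.04 with FB23-2 (edgeR, adjusted p = 5.31e-14) and stood at 0.05 ± 0.04 with FB23 (0.407), whose libraries overlap those of DMSO. PRKDC had 619, 639 and 679 CPM with FB23-2, 1348, 1325 and 1238 CPM with FB23 and 1352, 1396 and 1357 CPM with DMSO. It fell by 1.08 ± 0.05 with FB23-2 (adjusted p = 3.73e-13) and stood at -0.07 ± 0.05 with FB23 (0.295). Neither gene's FB23-2 libraries come near those of FB23 or DMSO.

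XRCC4 had 10.69, 10.56 and 10.51 CPM with FB23-2, 14.9, 15.1 and 14.8 CPM with FB23 and 15.6, 17.3 and 19.7 CPM with DMSO. It fell by 0.73 ± 0.09 with FB23-2 (edgeR, adjusted p = 9.6e-07). With FB23 it stood at -0.23 ± 0.09 (adjusted p = 0.0608), and all 3 FB23 libraries lie below all 3 DMSO libraries. Its ligase partner moved the other way: LIG4 had 16.4, 17.8 and 15.6 CPM with FB23-2, 15.7, 13.7 and 12.5 CPM with FB23 and 13.9, 14.6 and 14.6 CPM with DMSO. LIG4 rose by 0.21 ± 0.09 with FB23-2 (adjusted p = 0.0413), a call that ended without FB23-2 replicate 2 (0.16, adjusted p = 0.161) or without any 1 DMSO library (adjusted p = 0.077 to 0.131). Summed over the 5 genes, end joining transcripts came to 1120 to 1199 CPM with FB23-2, 2411 to 2583 CPM with FB23 and 2587 to 2666 CPM with DMSO. In TPM, the sums were 400.3 to 449.6, 769.7 to 848 and 814 to 845.

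**Figure D3:**
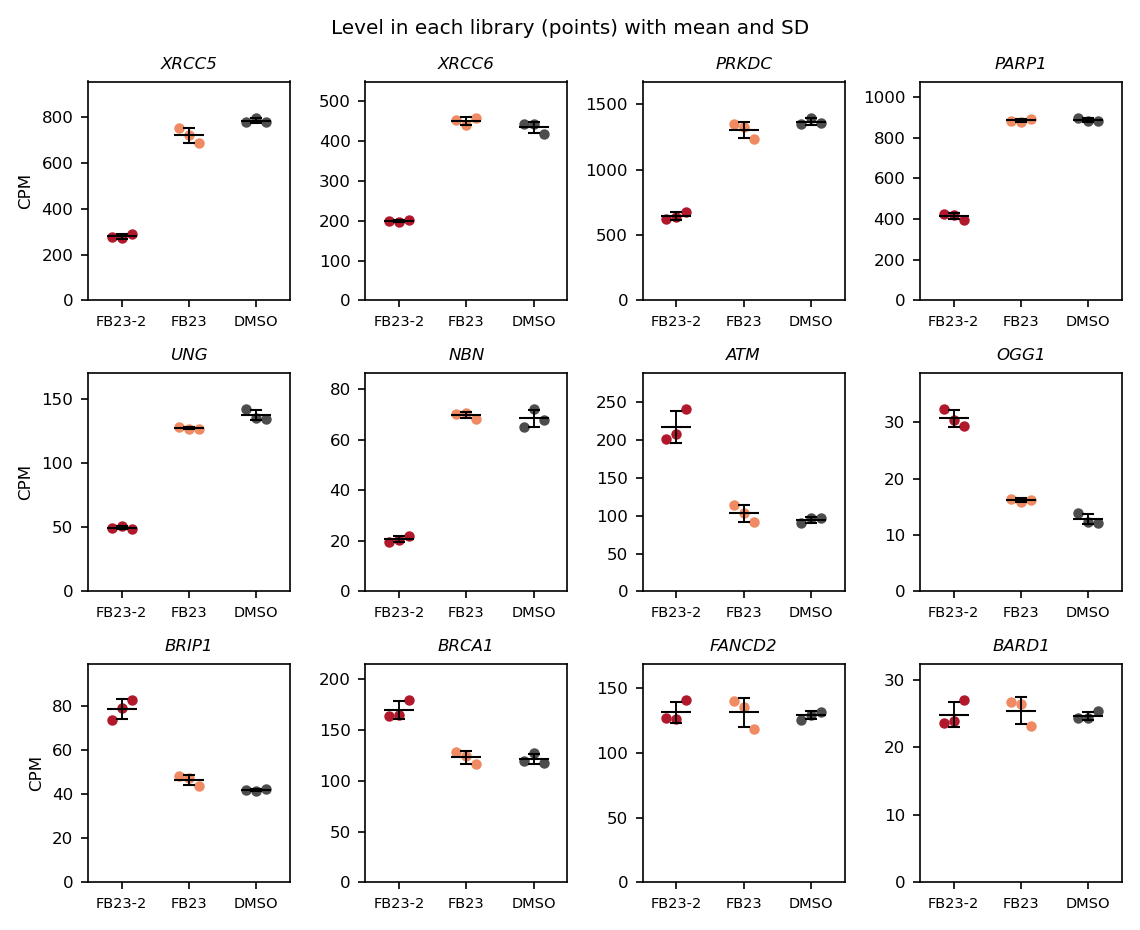
Each panel shows 1 gene, with points for the 3 libraries of each group, a dash for the mean and bars for the SD, in CPM on a linear axis from 0. The end joining genes XRCC5, XRCC6 and PRKDC, with PARP1, UNG and NBN, are low in all 3 FB23-2 libraries, ATM, OGG1, BRIP1 and BRCA1 are high in them, and FANCD2 and BARD1 overlap between groups.

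Of the 9 tested genes of a second list of end joining proteins, 6 were higher and 3 lower with FB23-2, with a median log2 fold change of 0.40. Beside them, 41.3% of all tested genes were called higher and 41.3% lower, and the list is short. Its split under the other scalings is not given here. APLF, a histone-binding scaffold that joins Ku, rose by 4.37 ± 0.39 and POLM, a gap-filling polymerase, by 1.22 ± 0.10 (edgeR, adjusted p = 1.07e-08 and 1.98e-09). The Ku-binding factor PAXX (listed as C9orf142) fell by 0.88 ± 0.06 and RIF1, which limits end resection, fell by 0.76 ± 0.06 (adjusted p = 4.44e-10 and 3.68e-09). The losses with FB23-2 thus included the most abundant end joining genes and not all genes of the route. In DMSO, XRCC5 at 340.1 ± 7.80 TPM (SD, n = 3), XRCC6 at 326 ± 8.61 TPM and PARP1 at 325 ± 1.61 TPM were the highest of the 39 genes per length, and neighbours in that order overlap between libraries. With FB23-2 the order was PARP1 at 180.2 ± 0.591 TPM, XRCC6 at 178 ± 8.95 TPM, XRCC5 at 144 ± 10.8 TPM and FANCI at 129 ± 10.6 TPM.

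Of 12 homologous recombination genes, 3 were higher with FB23-2, 7 lower and 2 not called, with a median of -0.16. The calls are 83.3%, near the 82.6% of all tested genes (41.3% higher and 41.3% lower). The genes that rose were BRCA1, BRCA2 and the helicase BLM. BRCA1, which starts resection of broken ends with its partner BARD1, had 163, 165 and 179 CPM with FB23-2, 128, 124 and 116 CPM with FB23 and 119, 127 and 118 CPM with DMSO. It rose by 0.48 ± 0.05 with FB23-2 (edgeR, adjusted p = 1.71e-07) and stood at 0.01 ± 0.05 with FB23 (0.889), whose libraries overlap those of DMSO. BARD1 had 23.5, 23.9 and 27.0 CPM with FB23-2 and 24.3, 24.3 and 25.3 CPM with DMSO, and the groups overlap. Its log2 fold change with FB23-2 was 0.00 (95% interval -0.16 to 0.17, adjusted p = 0.959).

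BRCA2, a mediator of strand exchange at resected DNA, had 65.2, 70.6 and 76.7 CPM with FB23-2, 62.7, 54.5 and 49.0 CPM with FB23 and 39.3, 47.9 and 45.5 CPM with DMSO. Both compounds lie above all DMSO libraries. It rose by 0.67 ± 0.09 with FB23-2 (edgeR, adjusted p = 1.39e-06) and by 0.30 ± 0.09 with FB23 (0.019). The FB23 call ended without DMSO replicate 1 (0.23, adjusted p = 0.114), without FB23 replicate 1 (0.22, adjusted p = 0.0542) and on log2(TPM + 1) (0.29, adjusted p = 0.112). BLM, which dissolves recombination intermediates, had 97.4, 99.6 and 111 CPM with FB23-2, 94.8, 86.8 and 80.1 CPM with FB23 and 81.0, 81.8 and 78.5 CPM with DMSO. It rose by 0.35 ± 0.06 with FB23-2 (adjusted p = 6.09e-05) and stood at 0.11 ± 0.06 with FB23 (0.24).

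The deepest fall of all members was that of NBN, the subunit of the MRN complex that brings ATM to a break. NBN had 19.7, 20.4 and 22.1 CPM with FB23-2, 70.1, 70.8 and 68.4 CPM with FB23 and 65.2, 72.2 and 68.0 CPM with DMSO. It fell by 1.73 ± 0.06 with FB23-2, to a fold of 0.302 (edgeR, adjusted p = 2.91e-14), and stood at 0.03 ± 0.05 with FB23 (0.781). RAD50, the clasp of the same complex, had 90.3, 89.5 and 97.6 CPM with FB23-2, 111, 108 and 101 CPM with FB23 and 129, 137 and 125 CPM with DMSO. It fell with both compounds, by 0.50 ± 0.05 with FB23-2 (adjusted p = 1.14e-07) and by 0.30 ± 0.05 with FB23 (0.000674), and none of its 3 groups overlap.

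Of RAD51C, RAD51D, XRCC2 and XRCC3, which assist strand exchange, RAD51C fell most on the counts. It had 25.6, 25.9 and 27.8 CPM with FB23-2, 50.1, 50.01 and 50.2 CPM with FB23 and 52.2, 48.6 and 47.1 CPM with DMSO, and fell by 0.90 ± 0.06 with FB23-2 (edgeR, adjusted p = 1.98e-10). With GC and length trends removed it fell by 0.24 (adjusted p = 0.000322), less than RAD51D and XRCC3. RAD51D had 15.9, 14.4 and 13.2 CPM with FB23-2 against 21.3, 18.2 and 18.8 CPM with DMSO, and XRCC2 had 59.4, 63.5 and 64.0 CPM against 70.8, 72.8 and 79.6 CPM. RAD51D fell by 0.41 ± 0.09 and XRCC2 by 0.26 ± 0.07 (adjusted p = 0.000308 and 0.00183). XRCC3 stood at -0.12 ± 0.06 (adjusted p = 0.0828) and had no stable direction: it stood at -0.41 once GC and length trends were removed (adjusted p = 3.78e-07) and at 0.13 on log2(TPM + 1) (limma, adjusted p = 0.0401). PALB2, the bridge between BRCA1 and BRCA2, and RAD54L, a motor of strand exchange, fell by 0.16 ± 0.06 and 0.15 ± 0.06 (adjusted p = 0.0218 and 0.0221), but both stood above 0 with upper-quartile factors (0.01 and 0.02) and on log2(TPM + 1) (0.08 and 0.09). In the wider list of 32 other recombination genes 14 were higher and 9 lower (71.9% called, beside 82.6% of all genes). There RMI2, a partner of BLM, rose by 1.23 ± 0.05 and the helicase RECQL rose by 1.17 ± 0.07. The deubiquitinase BRCC3 fell by 1.06 ± 0.07 and the helicase WRN fell by 0.94 ± 0.07.

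In the Fanconi anaemia pathway 4 of 10 genes were higher with FB23-2, 3 lower and 3 not called, with a median of 0.07. The calls are 70%, beside 82.6% of all tested genes (41.3% higher and 41.3% lower). The largest rise was that of BRIP1, a helicase that binds BRCA1. BRIP1 had 73.9, 79.4 and 82.9 CPM with FB23-2, 48.3, 47.3 and 44.0 CPM with FB23 and 42.2, 41.4 and 42.6 CPM with DMSO. It rose by 0.90 ± 0.06 with FB23-2 (edgeR, adjusted p = 1.03e-10) and stood at 0.14 ± 0.06 with FB23 (0.0997). All FB23 libraries lie above all DMSO libraries, by a small margin.

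FANCI and FANCD2 form the clamp that is ubiquitinated when the pathway is switched on. FANCI had 356, 342 and 376 CPM with FB23-2, 281, 272 and 246 CPM with FB23 and 242, 243 and 245 CPM with DMSO, and rose by 0.56 ± 0.05 with FB23-2 (edgeR, adjusted p = 1.42e-08). FANCD2 had 127, 126 and 141 CPM with FB23-2, 141, 135 and 119 CPM with FB23 and 126, 129.7 and 132 CPM with DMSO. Its groups overlap, and its log2 fold change with FB23-2 was 0.02 (95% interval -0.10 to 0.15, adjusted p = 0.717). On log2(TPM + 1) it stood at 0.27 (limma, adjusted p = 0.0128) and with upper-quartile factors at 0.20 (edgeR, adjusted p = 0.00732), a rise of about the size by which those scalings moved all genes.

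The ligase that modifies the clamp sits in a core complex, whose genes moved in different directions with FB23-2. FANCL, the ligase subunit itself, had 47.9, 45.3 and 49.5 CPM with FB23-2 and 35.1, 29.9 and 32.3 CPM with DMSO, and rose by 0.55 ± 0.07 (edgeR, adjusted p = 6.25e-07). FANCF, an adaptor of the complex, had 5.98, 8.02 and 7.41 CPM with FB23-2, 15.4, 12.7 and 14.6 CPM with FB23 and 13.8, 16.4 and 15.7 CPM with DMSO. It fell by 1.12 ± 0.12 with FB23-2 (adjusted p = 1.09e-07) and stood at -0.12 ± 0.11 with FB23 (0.463). FANCG had 51.2, 50.7 and 52.2 CPM with FB23-2 against 41.1, 42.8 and 41.8 CPM with DMSO. FANCG rose by 0.29 ± 0.05 (adjusted p = 7.33e-05), and FANCA and FANCC fell by 0.16 ± 0.04 and 0.13 ± 0.06 (0.00419 and 0.0488). FANCA had 179, 183 and 185 CPM with FB23-2 against 201, 203 and 205 CPM with DMSO, and FANCC 35.4, 34.6 and 33.4 CPM against 37.6, 37.8 and 37.6 CPM. FANCA and FANCC stood at 0.02 and 0.05 with upper-quartile factors and at 0.09 and 0.11 on log2(TPM + 1), and with GC and length trends removed FANCA stood at -0.45 (adjusted p = 5.88e-10). Their direction thus depended on the scaling, and the FANCC call also ended without any 1 library (adjusted p = 0.0593 to 0.121).

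FANCE, another core subunit, and FANCM, the translocase that anchors the core complex to DNA, were called with FB23, and with FB23-2 their calls depended on the scaling. FANCE had 44.8, 47.3 and 42.5 CPM with FB23-2, 53.0, 53.8 and 57.5 CPM with FB23 and 45.2, 49.0 and 49.3 CPM with DMSO. It rose by 0.20 ± 0.06 with FB23 (edgeR, adjusted p = 0.0218), stood at -0.09 ± 0.06 with FB23-2 (0.167; 0.15 on log2(TPM + 1), 0.0222, and -0.32 with GC and length trends removed, 5.03e-06) and was lower with FB23-2 than with FB23 by the direct test (-0.29 ± 0.06, 0.000197). FANCM had 22.4, 22.4 and 26.5 CPM with FB23-2, 27.2, 27.2 and 25.2 CPM with FB23 and 21.1, 22.3 and 22.0 CPM with DMSO. FANCM rose by 0.28 ± 0.08 with FB23 (adjusted p = 0.0166). With FB23-2 it stood at 0.12 (adjusted p = 0.185) but was called higher with upper-quartile factors (0.29, adjusted p = 0.00349), by library totals (0.26, adjusted p = 0.00836) and on log2(TPM + 1) (0.31, adjusted p = 0.00983). Its direct difference between the compounds did not pass (-0.16 ± 0.08, 0.06). Without DMSO replicate 1 neither FB23 call held (FANCE 0.16, adjusted p = 0.118; FANCM 0.25, adjusted p = 0.0702). Among 14 other Fanconi genes, 5 were higher and 7 lower with FB23-2 (85.7% called, beside 82.6% of all genes). SLX4, a nuclease scaffold, rose by 1.23 ± 0.05, and CENPX (listed as STRA13), a DNA-binding partner of FANCM, fell by 2.29 ± 0.09.

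**Figure D4:**
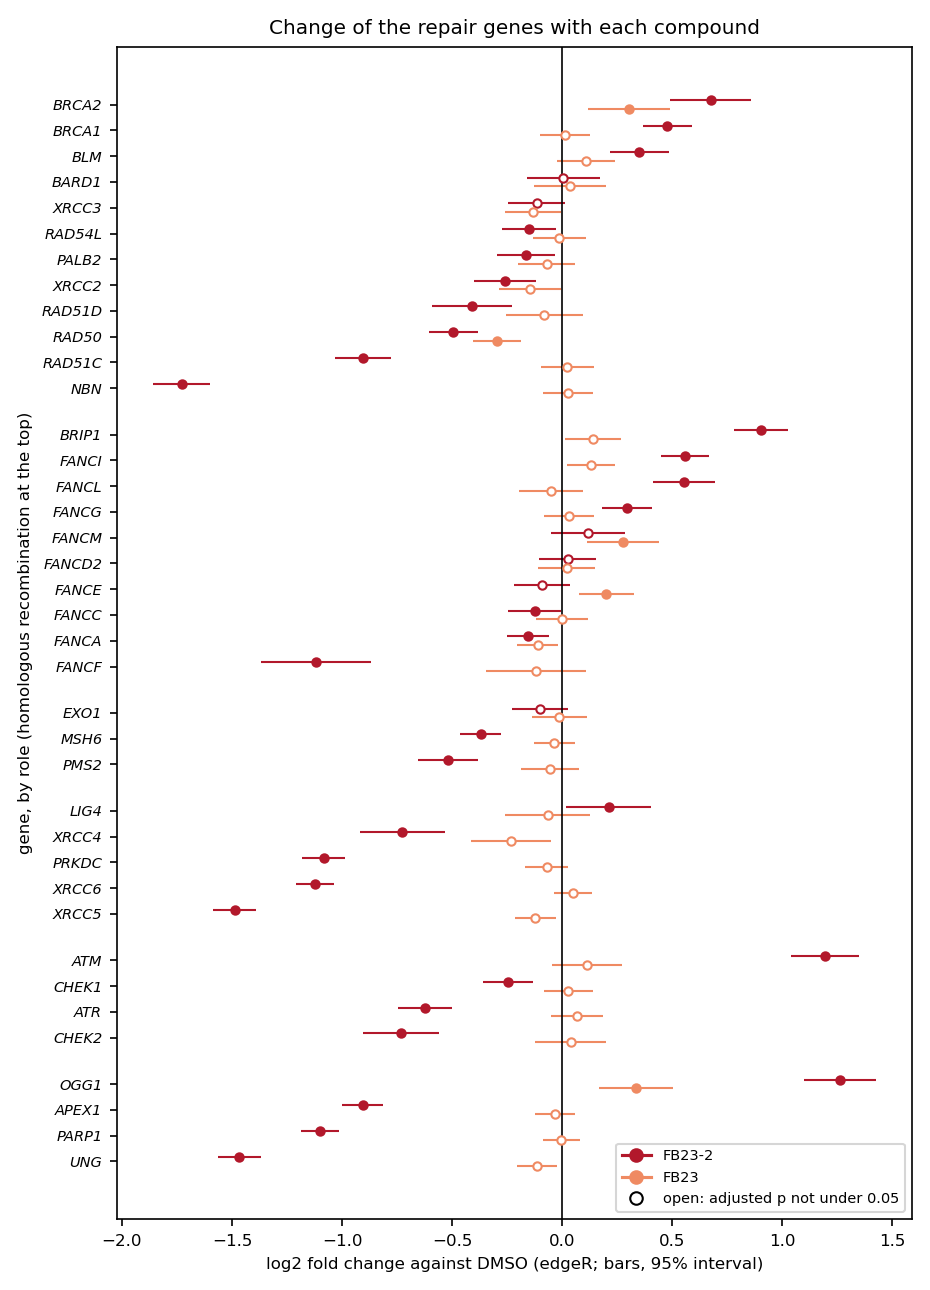
For each gene, grouped by role from homologous recombination at the top to base excision at the bottom, the dark point gives the log2 fold change of FB23-2 and the light point that of FB23, both against DMSO, with 95% intervals; open points had an adjusted p of 0.05 or more. The FB23-2 points spread from -1.73 (NBN) to 1.26 (OGG1), and the FB23 points lie between -0.30 (RAD50) and 0.34 (OGG1).

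Of 3 mismatch repair genes, 2 were called with FB23-2, each of them lower (66.7% called, beside 82.6% of all genes, of which 41.3% were called lower). MSH6, a subunit of the complex that reads mismatches, had 199, 193 and 208 CPM with FB23-2, 264, 248 and 246 CPM with FB23 and 261, 261 and 253 CPM with DMSO. It fell by 0.37 ± 0.05 with FB23-2 (edgeR, adjusted p = 6.28e-07) but stood at -0.12 on log2(TPM + 1) (limma, adjusted p = 0.078). PMS2, the nuclease subunit that nicks the new strand, had 33.4, 37.3 and 37.1 CPM with FB23-2 against 53.1, 48.9 and 52.1 CPM with DMSO and fell by 0.52 ± 0.06 (adjusted p = 8.77e-07). PMS2 shares near-identical sequence with its pseudogenes, of which PMS2CL stood at 0.41 and PMS2P1 at -1.39, so reads may have been split between them. EXO1, the exonuclease that removes the faulty stretch, stood at -0.10 ± 0.06 (adjusted p = 0.127), with overlapping groups. In the wider list, 4 of 5 genes were lower and 0 higher with FB23-2 (80% called), and PMS1 fell by 0.60 ± 0.06. With FB23 the 3 members stood between -0.06 (PMS2) and -0.01 (EXO1).

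Of the 4 checkpoint kinases, ATM rose and the other 3 fell with FB23-2. ATM, which answers to broken ends, had 202, 208 and 241 CPM with FB23-2, 114, 103 and 92.0 CPM with FB23 and 89.8, 96.7 and 97.2 CPM with DMSO. It rose by 1.19 ± 0.07 with FB23-2, to a fold of 2.29 (edgeR, adjusted p = 6.24e-11), and stood at 0.11 ± 0.08 with FB23 (0.298). ATM and its recruiting factor NBN therefore moved in opposite directions. ATR, which answers to stalled forks, had 48.9, 48.4 and 50.01 CPM with FB23-2 against 74.7, 74.7 and 77.6 CPM with DMSO and fell by 0.62 ± 0.06 (adjusted p = 1.88e-08).

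CHEK2, the kinase downstream of ATM, had 17.2, 16.8 and 16.5 CPM with FB23-2, 33.0, 26.9 and 27.5 CPM with FB23 and 28.7, 27.1 and 28.3 CPM with DMSO. It fell by 0.73 ± 0.08 with FB23-2 (edgeR, adjusted p = 2.07e-07) and stood at 0.04 ± 0.08 with FB23 (0.772). CHEK1, the kinase downstream of ATR, had 76.1, 76.4 and 82.7 CPM with FB23-2 against 94.9, 92.6 and 91.0 CPM with DMSO. It fell by 0.25 ± 0.05 with FB23-2 (adjusted p = 0.000404) but stood at 0.00 on log2(TPM + 1) and at 0.04 after GC and length trends were removed, so its fall depended on the scaling. In the wider checkpoint list, 6 of 14 genes were higher and 5 lower with FB23-2 (78.6% called, beside 82.6% of all genes). There the ubiquitin ligase RNF168 rose by 0.98 ± 0.05 and TIPIN, a fork protection factor, fell by 1.26 ± 0.10.

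The base excision genes held the largest rise of the 39 genes, that of OGG1, and 3 of 4 tested members fell. UNG, which cuts uracil out of DNA, had 49.2, 51.2 and 48.8 CPM with FB23-2, 128, 127 and 127 CPM with FB23 and 142.2, 136 and 135 CPM with DMSO. It fell by 1.47 ± 0.05 with FB23-2, to a fold of 0.362 (edgeR, adjusted p = 5.49e-15), and stood at -0.11 ± 0.04 with FB23 (0.0692), whose libraries all lie below those of DMSO. OGG1, which removes oxidised guanine, had 32.4, 30.4 and 29.3 CPM with FB23-2, 16.5, 15.9 and 16.3 CPM with FB23 and 13.9, 12.3 and 12.2 CPM with DMSO. It rose by 1.26 ± 0.08 with FB23-2 (adjusted p = 4.83e-11) and by 0.34 ± 0.08 with FB23 (0.00637), with no overlap among the 3 groups. OGG1 and RAD50 were the members whose call with FB23 held under all 20 alternative settings.

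PARP1, the sensor of nicks, had 424, 419 and 397 CPM with FB23-2, 883, 880.0 and 893 CPM with FB23 and 898, 885 and 881 CPM with DMSO. It fell by 1.10 ± 0.04 with FB23-2 (edgeR, adjusted p = 4.8e-14) and stood at -0.00 ± 0.04 with FB23 (0.954). APEX1, which cuts the backbone at the site of a lost base, had 82.5, 79.8 and 80.1 CPM with FB23-2 against 153, 154 and 147 CPM with DMSO and fell by 0.91 ± 0.04 (adjusted p = 2.2e-12). MGMT, which lifts alkyl groups off guanine, had 1 count over the 9 libraries and was not tested; 3 counts over all libraries would be 0.0156 CPM. Of 21 other genes of the route, 7 were higher and 12 lower with FB23-2 (90.5% called, beside 82.6% of all genes). Among them the glycosylase NTHL1 fell by 3.49 ± 0.19 and the demethylase ALKBH2 fell by 2.42 ± 0.11.

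Across roles, FB23 thus moved 5 members past the threshold: OGG1, BRCA2, FANCM and FANCE rose, by 0.20 to 0.34 on the log2 scale, and RAD50 fell. BRCA2, RAD50 and OGG1 were also called with FB23-2, in the same direction. How many members were called with FB23 depended on single libraries. Without FB23 replicate 3, the library with the lowest level of its group for 27 members, 9 were called (23.7%, beside 22.4% of all genes). Without DMSO replicate 1 only OGG1 rose and 3 were called in all (7.89%, beside 15.4%). After GC and length trends were removed, 8 were higher and 6 lower (36.8%, beside 32.2%), so whether the share of members called lay below or above that of all genes depended on these choices. The 33 members not called had 95% intervals between -0.41 and 0.27.

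Compared with each other, FB23-2 left 10 members higher and 20 lower than FB23, and 8 did not pass (edgeR, adjusted p under 0.05 over all genes). These 30 calls are 78.9% of the tested members beside 81.5% of all tested genes (40.4% higher and 41.1% lower), and the median was -0.15 beside 0.00. The library levels of 30 members did not overlap between the compounds, beside 81.2% of all genes. The split was 13 higher and 14 lower after upper-quartile scaling, 11 and 17 by library totals and 13 and 13 on log2(TPM + 1), and these scalings moved the median of all genes by 0.17, 0.13 and 0.22. The genes furthest below FB23 were NBN (-1.75 ± 0.06), XRCC5 (-1.37 ± 0.05) and UNG (-1.35 ± 0.05), and those furthest above it were ATM (1.08 ± 0.07) and OGG1 (0.93 ± 0.07), with adjusted p from 1.54e-14 to 1.46e-09. The 8 genes that did not pass were BARD1, PALB2, XRCC2, XRCC3, FANCA, FANCD2, FANCM and EXO1, and their 95% intervals lay between -0.32 and 0.14 on the log2 scale. Both comparisons with DMSO share the 3 DMSO libraries, so their values are set side by side only.

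Beside the 39 genes, 8 wider lists hold 120 tested repair genes, of which 47 were higher and 55 lower with FB23-2 (85%, beside 82.6% of all genes) and 22 higher and 10 lower with FB23 (26.7%, beside 23.5%), both near the background. Nucleotide excision repair, which removes bulky and ultraviolet damage, had 5 of 19 genes higher and 13 lower with FB23-2 (94.7% called). In it the centrin CETN2 rose by 2.22 ± 0.07 and the damage sensor DDB2 by 2.05 ± 0.12, while the TFIIH subunits GTF2H2 and GTF2H1 fell by 1.62 ± 0.12 and 1.18 ± 0.05 (edgeR, all called). Of 6 translesion genes 4 were higher, led by the polymerase POLI (1.67 ± 0.15), and 2 lower, of which the ligase RAD18 fell by 0.97 ± 0.06. Over the same libraries 15 of 15 mitosis genes were lower with FB23-2, with a median of -1.09. Of 30 replication genes 19 were lower and 7 higher (86.7% called), with a median of -0.35. Of all tested genes, 41.3% were called lower and 41.3% higher. CDKN1A, an inhibitor of the cell cycle kinases, stood at 291 CPM with FB23-2, 4.12 CPM with FB23 and 2.08 CPM with DMSO. The part of fewer cycling cells in the repair values was not tested.

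**Figure D5:**
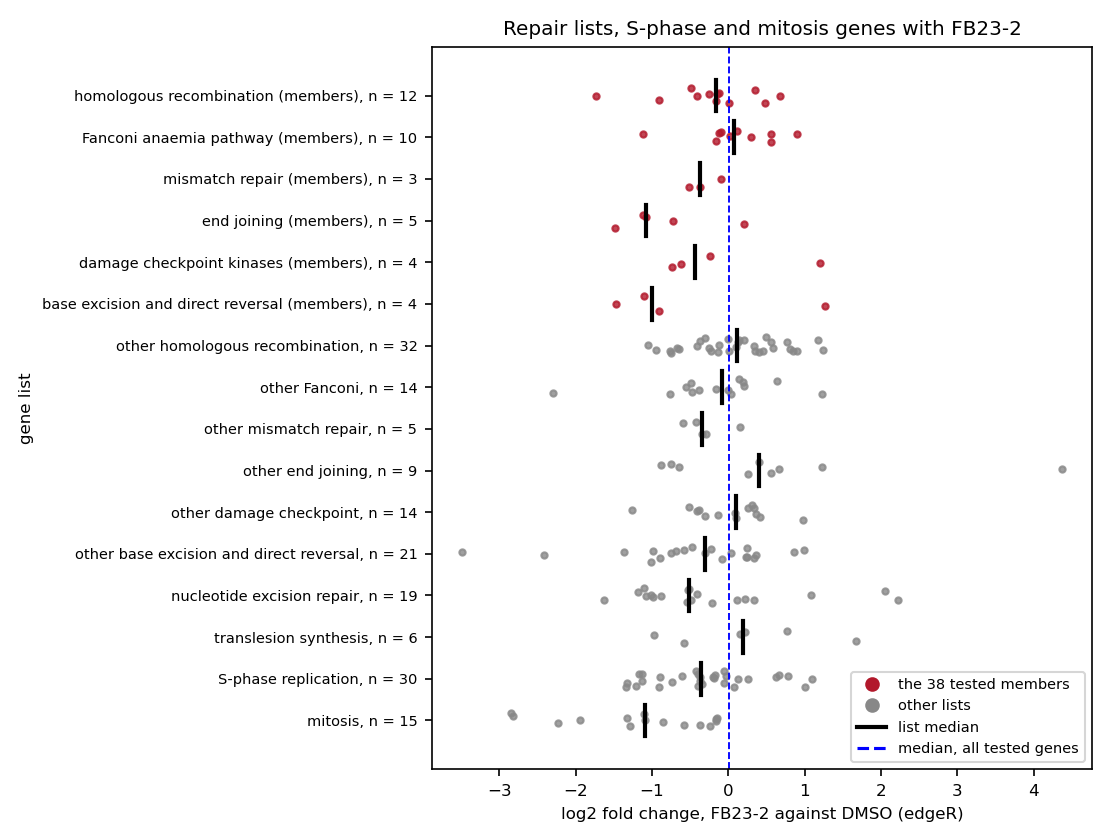
Each point is 1 tested gene with its log2 fold change of FB23-2 against DMSO; rows are the roles of the 38 tested members and the wider lists, black bars are list medians and the dashed line the median of all tested genes. The medians of the end joining members (-1.08) and of the mitosis genes (-1.09) lie far to the left, whereas the other end joining genes have a median of 0.40.

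Several members lie head to head with a neighbour that starts within 1000 bases on the other strand. In 11 such pairs both genes were tested, and in 8 (72.7%) both were called with FB23-2, beside 72.4% of the 601 such pairs among all tested genes, so this share was near the background. The direction was the same in 6 of the 8, beside 61.4% of all pairs with both genes called. PRKDC starts 2 bases from MCM4, a replicative helicase subunit that fell by 0.89 ± 0.04, and APEX1 starts 86 bases from OSGEP, which fell by 0.89 ± 0.08 with FB23-2. BRCA1 starts 236 bases from NBR1, which stood at 0.54, and RAD51C starts 518 bases from TEX14, which stood at 3.24 against a fall of RAD51C. Some members also overlap a gene on the other strand, and the strand setting of the counting is not given in the sources used here, so their reads may not be fully told apart. Of these, OGG1 overlaps TADA3 and CAMK1, which were not called with FB23-2 (-0.04 and -0.07), NBN overlaps DECR1 (-0.63), ATM overlaps NPAT (0.34), XRCC4 overlaps TMEM167A (-0.69) and CHEK2 overlaps HSCB (-0.60). Partners called in the direction of the member also include POLG (0.37, FANCI), LRRC41 (-0.51, RAD54L) and NBR2 (1.23, BRCA1). Others were called against it: VRK2 (-0.59) against FANCL (0.55), FBXO11 (0.36) against MSH6 (-0.37) and ZNF276 (0.13) against FANCA (-0.16). On the same strand, CHEK1 overlaps STT3A (-0.50) and RAD51D overlaps RAD51L3-RFFL. Reads of such pairs cannot be told apart by strand.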

How the data were processed

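Polyadenylated RNA was made into directional libraries, per the labels' protocols. The deposited expected counts and TPM were made by the authors with RSEM 1.2.31 on GRCh38, per the submitters' processing notes and the file headers; TPM is scaled for gene length. The length and effective length columns were deposited in bases. For the aligner, the annotation release and the strand setting, no source used here gives a statement.

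After rounding to whole numbers, the counts entered edgeR 4.0.16 under R 4.3.3 (filterByExpr with a minimum count of 10 and total of 15, leaving 13365 of 26830 genes; TMM; quasi-likelihood F test, two-sided, 1 mean per group over all 9 libraries; Benjamini-Hochberg over all tested genes, adjusted p under 0.05). The common biological coefficient of variation was 5.12%. Standard errors come from the F statistic. TPM was tested with limma 3.58.1 on log2(TPM + 1). Other settings used DESeq2 1.42.0 (size factors, Wald test), upper-quartile factors, library totals, limma-voom, other filters, 6 libraries only, the replicate block, and leaving out each library. Removal of GC and length trends was added after the data were seen; GC values were available for 94.3% of the genes tested and for all 39 members. The fit was tested on simulated data.

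All 39 members are described; from each wider list, up to the 2 highest and 2 lowest called genes per comparison could be named. The members and lists were chosen with earlier results of these data known. Neighbouring genes and pseudogenes are named from GENCODE coordinates and names and were chosen after their values were seen. RAD17 was not analysed here. No pair of replicates was identical. Reads carry no molecular identifiers, so floors cover counting error only.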

Additional observations from a re-analysis of the deposited data

How the results depend on the processing

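Calls with FB23-2 against DMSO were 29 to 31 (9 to 10 higher, 20 to 21 lower) when 1 library was left out, and 28 to 30 against FB23 (9 to 10 higher, 18 to 21 lower). For FB23 against DMSO they were 3 to 9 (1 to 7 higher, 1 to 3 lower), with 9 without FB23 replicate 3 and 3 without DMSO replicate 1. FB23 against DMSO had 2 lower members with the DESeq2 Wald test and with limma-voom, 3 lower with DESeq2 size factors, 8 higher and 6 lower (14 in all) with GC and length trends removed, and 2 higher (3 in all) on log2(TPM + 1). Lower members on log2(TPM + 1) were 14 with FB23-2 against DMSO and 13 against FB23. Turned signs are listed only for members called in the main fit or in the other fit. Members called in neither could also cross 0, such as EXO1 (0.077 with GC and length trends removed, FB23-2 against DMSO). For FB23-2 against DMSO, signs turned with upper-quartile factors for PALB2 0.0077, RAD54L 0.020, FANCA 0.018 and FANCC 0.046, and with library totals for FANCC 0.022. On log2(TPM + 1) they turned for PALB2 0.081, RAD54L 0.089, XRCC3 0.128, FANCA 0.094, FANCC 0.113, FANCE 0.151 and CHEK1 0.0041. With GC and length trends removed they turned for PALB2 0.034, XRCC2 0.041 and CHEK1 0.035. Against FB23 they turned for RAD54L 0.028, FANCA 0.124 and FANCC 0.043 with upper-quartile factors, FANCC 0.0019 with library totals, RAD54L 0.088, RAD50 0.033, FANCA 0.189 and FANCC 0.104 on log2(TPM + 1), and XRCC2 0.177 and XRCC3 -0.255 with GC and length trends removed. The cause was not tested. Members of low level, such as FANCF and LIG4, have the widest intervals.

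The main fit did not pair libraries by replicate number. Deviations of same-numbered libraries correlated between -0.18 and 0.09, and those of differently numbered libraries between -0.13 and 0.17. These ranges overlap, and such correlations cannot show whether the samples were paired. With the replicate block the calls were 30 (9 higher, 21 lower) for FB23-2 against DMSO, 5 (4 and 1) for FB23 against DMSO and 28 (10 and 18) for FB23-2 against FB23.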
